A study of Mus musculus with 4 samples.

Results

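Ttr, Kl, Folr1, Igf2 and Igfbp2 are genes of the choroid plexus, and on arrays of mouse CA1 hippocampus they were picked out because they read high 6 h after foot shock. They are 5 of the 8251 genes with a single symbol on the platform, and the platform reads them with 7 probe sets, groups of short oligonucleotides that each report 1 transcript. Kl, Ttr and Igfbp2 have 1 probe set each, and Folr1 and Igf2 have a pair each. Because the 6 h values chose the genes, the contrast of 6 h with the other times is given as a description.

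The 4 samples are total RNA of CA1 from young male C57BL/6J mice, taken 1, 2, 4 or 6 h after the last shock. The labels call the condition shock alone. They describe 3 shocks of 0.5 mA in a chamber the animals had entered 2 h earlier, and a further stay of 1 h there afterwards. Every group carries the same treatment, no genotype other than the strain is named, and the number of mice behind a sample is not given. Each time has 1 array, so no difference between times has a replicate check or a p-value, and the precision of all values is limited by the number of arrays. Unshocked animals were not analysed here.

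The choroid plexus is a folded epithelium inside the brain ventricles that makes cerebrospinal fluid, and the plexus of the lateral ventricle lies beside the hippocampus. Its cells export carriers and growth factors into the fluid: transthyretin (Ttr) binds thyroxine and, with retinol-binding protein, retinol; klotho (Kl) is a coreceptor for the hormone FGF23; the folate receptor alpha (Folr1) moves folate from blood to fluid; and the growth factor IGF2 (Igf2) is secreted together with its binding protein IGFBP2 (Igfbp2). Pyramidal neurons of CA1 are not known as a main source of these transcripts, although IGF2 has been linked to memory consolidation in rat hippocampus.

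RefSeq promoter windows (build GRCm38.p6) were read for 3 of the genes, with 1 annotated start for Kl, 2 for Igfbp2 and 4 for Igf2. No window of Ttr or Folr1 was included, so the motif counts of the genes leave both out. Whether these 2 genes have annotated starts was not examined. The windows below are the 250 bases before a start, shown for genes that were all highest at 6 h, 5′ to 3′ on the gene's strand. Capitals mark a GC box (GGGCGG, or CCGCCC on the other strand) or a CCAAT box (CCAAT, or ATTGG on the other strand).
Kl, chr5:150952357-150952606, plus strand: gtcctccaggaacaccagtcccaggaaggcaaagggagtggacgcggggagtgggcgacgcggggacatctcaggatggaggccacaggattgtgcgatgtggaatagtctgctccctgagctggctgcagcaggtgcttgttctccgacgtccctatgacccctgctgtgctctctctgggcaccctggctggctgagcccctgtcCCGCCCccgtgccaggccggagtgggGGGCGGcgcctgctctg
Igfbp2, chr1:72824230-72824479, plus strand: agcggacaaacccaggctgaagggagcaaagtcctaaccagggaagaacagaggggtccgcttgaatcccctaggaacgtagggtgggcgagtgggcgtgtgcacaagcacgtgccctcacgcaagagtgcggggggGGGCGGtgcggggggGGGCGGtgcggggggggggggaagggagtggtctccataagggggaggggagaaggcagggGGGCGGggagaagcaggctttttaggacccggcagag
Igf2, the fourth start, chr7:142657497-142657746, minus strand: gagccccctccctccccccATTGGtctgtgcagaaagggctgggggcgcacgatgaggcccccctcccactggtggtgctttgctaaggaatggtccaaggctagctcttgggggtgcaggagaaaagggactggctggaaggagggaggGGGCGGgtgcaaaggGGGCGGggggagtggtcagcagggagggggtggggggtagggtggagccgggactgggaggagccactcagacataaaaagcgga
The window of Kl holds 2 GC boxes, that of the first Igfbp2 start holds 3, and that of the fourth Igf2 start holds 2 along with 1 CCAAT box. Of the windows not shown, the third of Igf2 holds 1 GC box. The second of Igfbp2 and the first and second of Igf2 hold none. The windows with a GC box are 66.0% to 68.8% G or C, against a median of 52.4% over all windows. A GC box was found in 4 of the 7 windows of these genes, against 32.7% of all 32851 windows in the table, and a CCAAT box in 1 of 7, against 33.8%. A TATA box (TATAAA, or TTTATA) and the core recognised by OTX homeodomain proteins (TAATCC, or GGATTA) were found in 0 of the 7, and in 12.4% and 6.25% of all windows. These 4 motifs do not overlap one another in the windows. The matches are letters only, and the arrays do not show which start was in use.

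Ttr, the most abundant secreted product of the plexus, had intensities of 111 on the 1 h array, 89.9 on the 2 h array, 198 on the 4 h array and 4482 on the 6 h array. The 6 h array stands far above the rest, and the 2 h value lies below the floor of 100.8, the 40th percentile of all values, under which intensities were treated as unmeasured. At 6 h Ttr stood 40.5-fold above 1 h, at least 44.5-fold above 2 h and 22.7-fold above 4 h. Of 7296 probe sets above the floor at 6 h it had the largest fold over the highest of the other arrays. The bulk RNA cannot tell more cells of a type from more RNA per cell.

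Kl had intensities of 177 and 179 on the 1 h and 2 h arrays, 378 on the 4 h array and 508 on the 6 h array. The 1 h and 2 h arrays were alike, and both later arrays were higher. The 6 h value was 2.87-fold that of 1 h and 2.84-fold that of 2 h, but 1.34-fold that of 4 h. Most of the span of the klotho gene was thus already present on the 4 h array.

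Folr1 had its brighter probe set at 98.4, 58.7, 37.6 and 255 at 1, 2, 4 and 6 h. Only the 6 h value lies above the floor, and the order of the earlier times is not measured. The gene was at least 2.53-fold higher at 6 h than at each other time. Its other probe set, a set with the suffix f that marks probes shared with related sequences, read 31.2, 19.3, 15.8 and 28.0. It stayed below the floor on all 4 arrays and so gives no reading of the folate receptor either way.

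Igf2 had intensities of 1243, 888, 1191 and 2379 on the 1, 2, 4 and 6 h arrays in its brighter probe set. The 3 earlier arrays span 1.40-fold, and the 6 h array lies above them. The value at 6 h stood 1.91-fold above 1 h, 2.68-fold above 2 h and 2.00-fold above 4 h. The second probe set, which the annotation assigns to the same sequence record, read 15.9, 26.2, 19.1 and 20.7. It was below the floor at every time, so the course of Igf2 rests on the brighter set alone. The brighter set carries the suffix g and the second set carries none. Whether the brighter set also reads other sequences was not tested.

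Igfbp2 had intensities of 341, 322, 296 and 426 on the 1, 2, 4 and 6 h arrays. The earlier arrays span 1.15-fold, and the 6 h array is again the highest. The value at 6 h stood 1.25-fold above 1 h, 1.32-fold above 2 h and 1.44-fold above 4 h. The folds over 1 h and 2 h were the smallest among the 5 genes, and against 4 h that of Kl was smaller. On the log2 scale it lay 0.41 above the mean of the other times, where the difference between the 6 h and 4 h arrays had a robust SD of 0.26 over all measured probe sets.

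**Figure D1:**
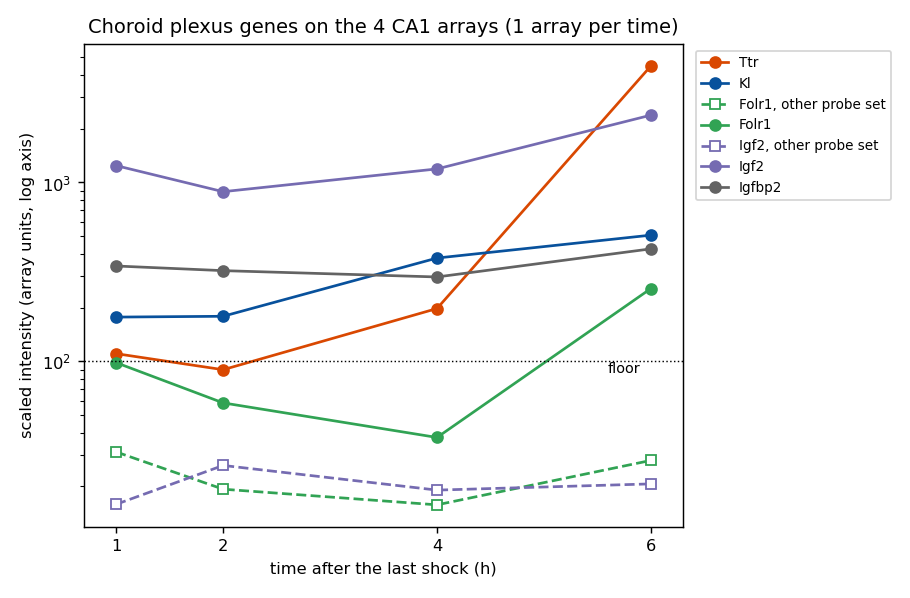
Scaled intensity (log axis) of the 7 probe sets of Ttr, Kl, Folr1, Igf2 and Igfbp2 against hours after the last shock, with 1 array per time, filled circles for the probe set that stands for the gene, open squares for a second one, and a dotted line at the floor of 100.8. Ttr reaches 4482 at 6 h from 198 or less on the other arrays, Kl is already at 378 at 4 h, and both open-square sets stay below the floor.

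The size of the 6 h excess thus differed widely among the 5. Relative to the mean log2 value of the other times it was 1.15 for Kl, 1.12 for Igf2 and 0.41 for Igfbp2. It was at least 5.11 for Ttr, with 1 value at the floor, and at least 1.34 for Folr1, with 3. With the floor at the 60th percentile Folr1 was no longer above it, and its difference was 0.00. Ttr, Folr1 and Igf2 passed 1.5-fold over each other array, as did 66 of the 7296 probe sets above the floor at 6 h, or 0.905%. Kl and Igfbp2 did not, so the label of a gene high at 6 h holds for them only as the highest of 4 values. By that fold Ttr ranked 1, Folr1 6, Igf2 15, Kl 163 and Igfbp2 295. The choice of genes used this contrast, and nothing is read from these ranks.

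**Figure D2:**
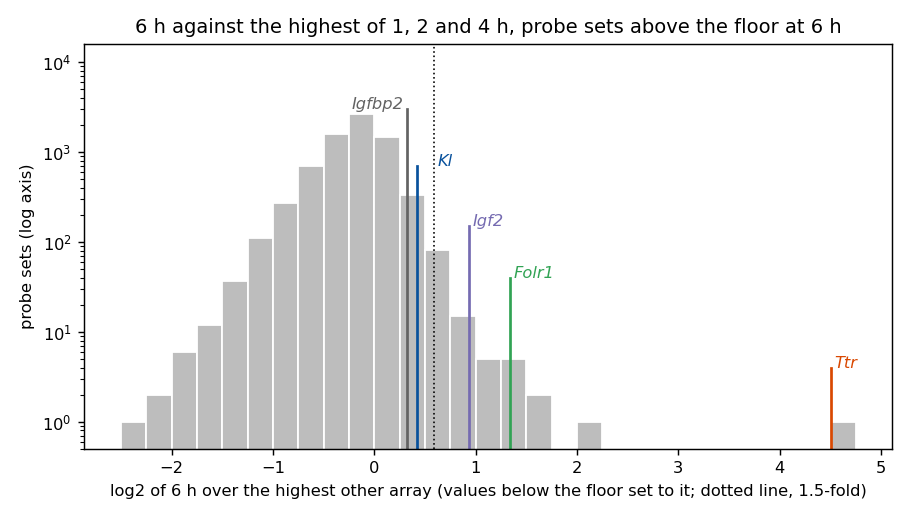
Number of probe sets (log axis) by the log2 ratio of 6 h to the highest of the 1, 2 and 4 h arrays, for the 7296 above the floor at 6 h, with coloured lines at the 5 genes and a dotted line at 1.5-fold. Ttr lies far to the right of all others at 22.7-fold, Folr1 at 2.53-fold and Igf2 at 1.91-fold lie past the dotted line, and Kl and Igfbp2 lie short of it.

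The contrast of 4 h with the earlier arrays did not use the 6 h values. In it Kl stood 2.14-fold above 1 h and 2.12-fold above 2 h. Ttr stood 1.79-fold above 1 h and at least 1.96-fold above 2 h. Igf2, at 0.96 of its 1 h value and 1.34-fold its 2 h value, lay between no change and a small excess, and Igfbp2 was lower, at 0.87 of 1 h and 0.92 of 2 h. Thus 2 of the 4 genes above the floor at 4 h passed 1.5-fold over both earlier arrays, where 123 of 7342 probe sets did, or 1.68%. With the floor at the 60th percentile neither did, at log2 differences of 0.50 for Kl and 0.00 for Ttr, and at a limit of 2-fold Kl alone did. The fifth, Folr1, was below the floor on all 3 of these arrays.

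The courses also separated the genes from one another. As a measure of likeness, each log2 profile over the 4 arrays was centred on its own mean and the root mean square distance to every other gene was taken. Igfbp2 lay 0.36 from Igf2 and 0.60 from Kl, and Kl lay 0.41 from Igf2. Ttr lay 1.72 from Kl, 1.76 from Igf2 and 2.08 from Igfbp2. No distance is given for Folr1, since 3 of its 4 values are the floor itself. Among all 6377 other genes compared, the nearest to Ttr was the otogelin gene Otog, at 1.57, with intensities of 52.8, 109, 52.9 and 314 from 1 to 6 h, of which those at 1 h and 4 h lie below the floor, so none of the genes compared had a course of like size.

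The genes nearest to Kl were Reg1, at 0.13, Lbp, at 0.18, and H2-M3, at 0.20. Lbp encodes the lipopolysaccharide-binding protein and read 156, 158, 248 and 417, higher at 4 h and again at 6 h. Reg1 read 73.4, 53.3, 264 and 296, and its values at 1 h and 2 h lie below the floor. The 2 h value of H2-M3, 92.2, lies below it too. For Igf2 the nearest genes were Wdfy2, at 0.05, Rnf26 and Trip12, whose 2 h value of 84.6 lies below the floor. For Igfbp2 they were Arrb1, at 0.03, Atox1 and Arf3. Arrb1, a beta-arrestin, read 640, 586, 560 and 765, a course of the same small range as that of Igfbp2. With 4 arrays, such nearness is a description, and many genes have flat or nearly flat courses.

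The 10 genes with the largest fold at 6 h over the highest other array were Ttr, Otog, Folr1, Slc25a3, Fancc, Slc25a10, Trip12, Ascl2, Igf2 and Kcnj11. Of these, Slc25a3, Slc25a10, Ascl2 and Kcnj11 were below the floor on all 3 earlier arrays, like Folr1. Fancc, a DNA repair gene, was above the floor throughout, at 224, 150, 133 and 532, although its second probe set was below it on every array. Besides Ttr, Folr1 and Igf2, none of the 10 belongs to the list of choroid plexus genes used here.

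Other genes of the choroid plexus came from a list of 55 without the 5, of which 32 were on the array with a single symbol. Of the 32, 10 were below the floor on all 4 arrays, among them Slc4a5, Cldn1, Cldn2 and Htr2c. Of the remaining 22, 13 were highest at 6 h, where 22.8% of all 6378 genes above the floor on at least 1 array were. Since 3 of the 22 entered through the 6 h array alone, the count was also taken over genes above the floor on an earlier array, and 10 of 19 were highest at 6 h, against 21.7% of 6287 genes.

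Lbp at 417, Col8a1 and Rdh5 passed 1.5-fold over each other array at 6 h, 3 of the 22, where 0.905% of probe sets above the floor at 6 h did. The bases differ, as the 22 are genes above the floor on any array and some were below it at 6 h. Col8a1, a collagen gene, read 19.6, 23.3, 81.4 and 170, and Rdh5, a retinol dehydrogenase, read 29.8, 44.8, 50.8 and 159. Both were above the floor at 6 h alone and so entered the 22 only through that array. F5, coagulation factor V, was also above it only at 6 h, at 113 against 8.30, 6.51 and 15.7.

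Among ion and metal transporters of the epithelium, the sodium-potassium-chloride cotransporter Slc12a2 read 979, 918, 902 and 1324. The earlier values lay close together and 6 h was 1.35-fold above the highest of them. The copper transporter Slc31a1 read 391, 289, 415 and 595, and its second probe set, at 278, 291, 321 and 364, was also highest at 6 h with a smaller span. The anion exchanger Slc4a2 read 373, 471, 459 and 522. The zinc transporter Slc39a4 was highest at 1 h instead in its brighter probe set, at 968, with 916, 793 and 819 later. Its other probe set read 94.7, 71.3, 50.5 and 110, above the floor only at 6 h.

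Other members of the list were split. Col9a3, a collagen gene, read 313, 370, 396 and 540, and the homeobox gene Msx1 read 460, 389, 409 and 540, both highest at 6 h. The same held for Calml4, at 115, 200, 173 and 232, for Cox8b, at 321, 275, 268 and 397, and for Ace, the angiotensin-converting enzyme, at 50.6, 216, 180 and 241. Ace differed little between 2 h and 6 h, and its other probe sets were below the floor on all 4 arrays. Cab39l, by contrast, had its lowest value at 6 h, with 306, 364, 249 and 192. The carbonic anhydrase genes Car12, at 254, 363, 309 and 293, and Car14, at 240, 397, 297 and 334, were highest at 2 h. Abca4, at 106, 215, 114 and 128, was highest at 2 h too, and Mcee, at 521, 451, 454 and 489, at 1 h. Cdkn1c, a cell cycle inhibitor gene, read 109, 70.4, 55.7 and 147, above the floor at 1 h and 6 h. The ceruloplasmin gene Cp was above the floor only at 1 h, at 104, and the keratin gene Krt18 only at 2 h, at 104. Aqp1, the water channel of the plexus, was at 44.6, 96.8, 104 and 101, above the floor only at 4 h.

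Over the 15 other choroid plexus genes with a mean above the floor, the median log2 difference of 6 h from the mean of the other times was 0.37, with 11 genes higher and 4 lower. Over 5671 genes of the platform chosen by the same floor the median was −0.01, and 48.9% were higher. By at least 1.5-fold 4 of the 15 were higher and 1 was lower, against 2.73% and 4.37% of all genes. With all 32 genes, values below the floor being set to it, the median was 0.00. At 4 h against 1 h and 2 h the median of the 15 was −0.05. Lbp was the 1 gene of 16 above the floor at 4 h that passed 1.5-fold over both. Of probe sets above the floor at 4 h, 1.68% did.

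**Figure D3:**
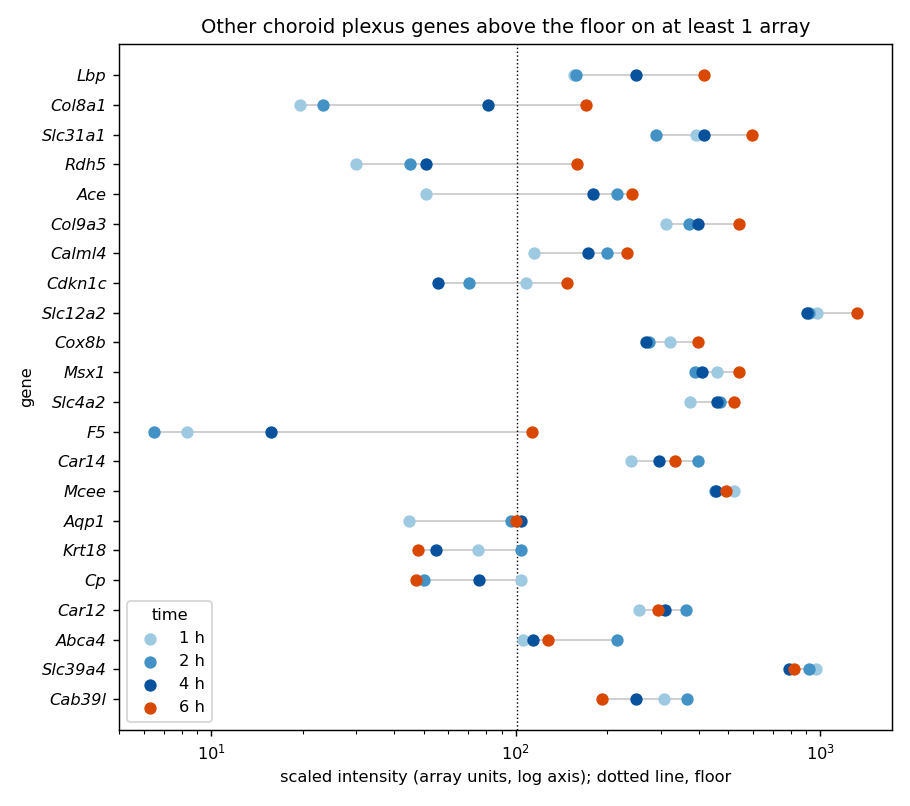
Scaled intensity (log axis) of the 22 other choroid plexus genes above the floor on at least 1 array, 1 row per gene, ordered by the 6 h difference, with a point for each time and a dotted line at the floor of 100.8. The 6 h point is the rightmost in 13 rows, among them Lbp at 417 and Slc12a2 at 1324, and Cab39l has its lowest value there at 192.

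The samples are labelled as CA1, and of 10 pyramidal neuron markers on the array 9 had a mean above the floor. The exception was Camk2a, a kinase gene of excitatory neurons, whose brighter probe set read 110, 30.5, 37.7 and 35.9, above the floor at 1 h alone. Wfs1, a gene of CA1 pyramidal cells, read 1709, 1637, 2608 and 2205, and the transcription factor gene Neurod6 read 768, 648, 1263 and 1089. Over the 9 genes the median at 6 h relative to the other times was 0.04, with 5 higher and 4 lower. That median lies near the one of all measured genes, −0.01. At 4 h, 3 of the 9 passed 1.5-fold over both earlier arrays, as Kl and Ttr did, where 1.68% of probe sets above the floor did.

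Cells that adjoin the plexus or share some of its transcripts were read in the same way. Ciliated ependymal cells line the ventricles, and their 5 measured markers had a median of −0.04 at 6 h, with Foxj1, the regulator of motile cilia, at 296, 294, 275 and 244. Mia was the member with the largest difference, at 187, 118, 218 and 260. Fibroblasts of the meninges also make Igf2 and Igfbp2. Their 15 measured markers had a median of −0.09, with 6 higher and 9 lower. The proteoglycan gene Dcn, at 5844, 3395, 2523 and 2915, was highest at 1 h, and Col1a1 was lowest at 6 h, at 305, 303, 359 and 202. Pdgfra, at 752, 595, 577 and 1027, and Serping1, at 42.9, 124, 82.8 and 172, were highest at 6 h.

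Endothelial markers had a 6 h median of −0.29, with 9 of 11 genes below the mean of the other times. Of all genes with a mean above the floor, 48.9% were higher at 6 h than that mean. Cldn5, a tight junction gene of brain vessels, read 393, 376, 401 and 320, and Vwf read 197, 150, 204 and 76.5. Genes of oligodendrocytes and myelin had a 6 h median of 0.18, with 7 of 9 higher, against the same 48.9%. The same number, 7 of 9, were highest at 6 h, against 22.8% of all genes above the floor on at least 1 array. The share of 7 of 9 was larger than that of the choroid plexus list. The myelin gene Mag read 538, 630, 484 and 805. Its dimmer probe set, at 119, 121, 102 and 110, was highest at 2 h instead. The medians at 6 h were −0.06 for 12 astrocyte genes, −0.02 for 8 microglial genes and 0.12 for 3 blood cell genes. Of these 9 lists, the choroid plexus list without the 5 genes had the highest median at 6 h. The summed intensity of its 15 genes was 5554, 5993, 5666 and 7063 from 1 to 6 h. The part of adjoining tissue in the values of the 5 genes was not tested.

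**Figure D4:**
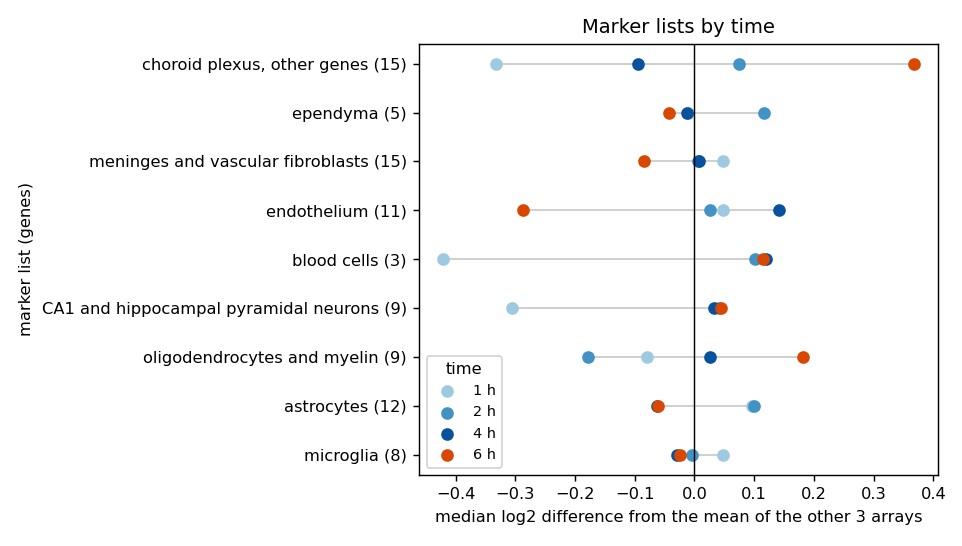
Median log2 difference of each time from the mean of the other 3 arrays (x axis) for 9 lists of cell type markers, with the number of genes whose mean lay above the floor in brackets and 1 point per time. The choroid plexus list without the 5 genes is the farthest right at 6 h, at 0.37, and the endothelial list the farthest left at that time, at −0.29.

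Igf2 and Igfbp2 belong to the insulin-like growth factor system, in which a growth factor, its receptors and a set of binding proteins act together. Of the 16 others on the array, 11 were above the floor on at least 1 array and 1 of these was highest at 6 h, against 22.8% of all genes. That gene was above the floor at 6 h alone. Over genes above the floor on an earlier array, 0 of 10 were highest at 6 h, against 21.7%. The median of the 7 with a mean above the floor was −0.16 at 6 h, with 1 higher and 6 lower, where 48.9% of all genes were higher. The growth factor gene Igf1 read 1424, 1254, 908 and 1140, within the range of its earlier values at 6 h. The binding protein gene Igfbp6 read 641, 371, 667 and 403, and Igfbp3, another binding protein gene, read 101, 186, 141 and 110. Irs2, which relays the signal of the receptors, was lowest at 6 h, at 1215, 922, 1072 and 674.

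Kl acts with the FGF receptors in the response to FGF23, and none of the 3 receptor genes with a mean above the floor was highest at 6 h in the probe set that stands for it. Fgfr1 read 626, 728, 757 and 722, and Fgfr2 read 832, 962, 1043 and 1014, with a dimmer probe set at 178, 229, 155 and 139. Fgfr3 was highest at 2 h, at 173, 355, 222 and 205. Adam17, a protease that sheds klotho from the cell surface, was below the floor at 6 h, at 39.5, against 140, 135 and 169 at the earlier times. Over the 6 other measured genes of the axis the median was 0.03.

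Of the genes for folate uptake and one-carbon metabolism, the proton-coupled folate transporter Slc46a1 read 184, 197, 242 and 277, higher at each later time. Fpgs, which adds glutamates to folate in the cell, read 231, 216, 244 and 323. The reduced folate carrier Slc19a1 disagreed between probe sets, with 295, 232, 217 and 214 in the brighter, lowest at 6 h, and 87.0, 162, 95.8 and 283 in the other, highest at 6 h. Over 8 measured genes other than Folr1 the median was 0.05, with 5 higher and 3 lower.

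Of the genes for transport and use of thyroid hormone and retinol, the partner of transthyretin, Rbp4, read 330, 495, 484 and 463, highest at 2 h. Dio2, which makes the active thyroid hormone in glial cells, was lowest at 6 h, at 1701 against 2541, 2568 and 2594. The retinoid receptor gene Rxrb read 1832, 1869, 2380 and 1497. Over 7 measured genes other than Ttr the median was 0.05, with 5 higher and 2 lower.

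Genes next to the 5 on the chromosomes were read from the order of protein-coding genes in RefSeq. Not every neighbour on the array is given. Pds5b, beside Kl, read 217, 217, 221 and 242, and Rpl37a, beside Igfbp2, read 4865, 5138, 4347 and 4864. Anapc15, beside Folr1, read 482, 405, 226 and 462. Folr2, the folate receptor gene beside Folr1 on chromosome 7, read 200, 225, 185 and 215, with no excess at 6 h. Beside Igf2 on chromosome 7, Ins2 was below the floor on all 4 arrays, at most 33.6, and the third gene on that side, Ascl2, was above it only at 6 h, at 205 against 42.4, 50.0 and 47.9. On the other side of Igf2, Mrpl23, a mitochondrial ribosomal protein gene, read 1632, 1676, 1566 and 1723. The neighbours of Ttr on chromosome 18, Dsg2 at 134, 118, 179 and 163 and B4galt6 at 1248, 1171, 1110 and 1273, were highest at 4 h and at 6 h, and neither was 1.5-fold higher at 6 h than on each other array.

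Controls of the arrays give the technical setting. The 3′ to 5′ ratio of the actin control was 1.84, 2.70, 1.79 and 1.74 from 1 to 6 h, and that of Gapdh 3.98, 4.82, 3.85 and 3.24, lowest at 6 h in both. All probe sets of the 18S RNA control were also lowest at 6 h. Its 3′ set read 3226, 4854, 2889 and 1872, and its 5′ set 1386, 2007, 991 and 383. The middle set read 435, 832, 410 and 269. The geometric mean of 9 spike-in probe sets relative to 1 h was 1.16, 0.94 and 0.87 on the 2, 4 and 6 h arrays. Among probe sets above the floor on both arrays, 46 were at least 2-fold higher and 39 at least 2-fold lower in the 6 h sample, compared with 4 h. The part of these differences in the values of the 5 genes was not tested.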

How the data were processed

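Total RNA from CA1 was hybridised to 4 arrays of 12488 probe sets, 1 per time. The deposited intensity values are linear, from 0.5 to 114348, and had been brought to a common level before deposit, as the trimmed mean without 2% at each end was 500.3 on every array. No source used here names the software or gives a detection call. Arrays were scaled to a common trimmed mean over 12422 probe sets other than 66 controls (factors 0.999 to 1.001). Values below the 40th percentile, 100.8, were set to it before log2, and folds against such values are bounds. Printed intensities are scaled values before that step.

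Of the probe sets, 10833 had 1 gene symbol in the platform annotation, 396 had several and 1193 had none. The probe set with the highest mean stood for a gene. RefSeq (GRCm38.p6) gave gene order and promoter windows. With 1 array per time no significance test was run.

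The 5 genes and the 13 gene lists were chosen with earlier results of these data known. Genes named were every probe set of the 5, any choroid plexus gene above the floor, up to 6 genes per other list with the largest 6 h difference plus its first, the 10 largest folds at 6 h, and the 3 nearest profiles per gene (not given for Folr1). The neighbouring genes other than Ascl2 lie outside that rule and were added with values known. The same holds for Camk2a, for Ptgds, and for Slc4a5, Cldn1, Cldn2 and Htr2c, named as examples below the floor. Alternatives were the deposited values, scaling to the median, quantile normalization, other floors, a limit of 2-fold, other summaries and each earlier array left out. The steps were tested on simulated arrays. Figures used matplotlib 3.10.9, and computations NumPy 2.4.6 and pandas 2.3.3 under Python 3.11.15.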

Additional observations from a re-analysis of the deposited data

How the results depend on the processing

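No paired analysis was possible because each time has 1 array. Of 125 values under the alternatives, 98 moved by less than the robust SD of 0.26 (log2), or by at most 1.5 times for a count, and 27 moved more. The 4 h difference of Igf2, 0.18, turned to −0.06 without the 2 h array, the 1 change of sign among the 125. None of the values as deposited, with median scaling or with quantile normalization was among the 27. Median scaling moved the 6 h difference of all probe sets by 0.07, and gave 99 probe sets past 1.5-fold at 6 h, against 66. Both a floor at the 20th percentile and no floor gave the same value for Folr1, which was 2.09 at 6 h and −1.02 at 4 h, from values treated otherwise as unmeasured. The floor at the 60th percentile gave 4.07 for Ttr, 0.76 for Kl and 0.00 for Folr1 at 6 h, and 0.00 for Ttr and 0.50 for Kl at 4 h. As a mean over probe sets Folr1 was 0.67 and Igf2 0.56, since the second set of each lay below the floor.

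The probe sets past 1.5-fold at 6 h numbered 278, 17 and 134 with the floor at the 20th or 60th percentile or absent, and 14 at 2-fold. At 4 h they numbered 491, 32, 221 and 29. Without 1 of the earlier arrays these were 130 to 141 at 6 h and 345 to 458 at 4 h, fewer arrays having to be exceeded. Without 1 array the 6 h difference was 4.92 to 5.41 for Ttr, 0.97 to 1.51 for Kl, 1.34 for Folr1, 0.97 to 1.21 for Igf2 and 0.36 to 0.46 for Igfbp2. The 4 h difference was 0.84 to 0.97 for Ttr, 1.08 to 1.10 for Kl, 0.00 for Folr1, −0.06 to 0.42 for Igf2 and −0.20 to −0.12 for Igfbp2. The median of the other choroid plexus genes was 0.29 to 0.35, and 0.00 over all 32 on the array. Folr1 at the earlier times and both second probe sets are limited by their low signal.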

Other observations

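Ptgds encodes prostaglandin D synthase, which choroid plexus and meninges secrete into cerebrospinal fluid, and its 3 probe sets disagreed on 6 h. The set with the largest value read 5203, 5037, 4862 and 8311 from 1 to 6 h, while the others read 5819, 6894, 6426 and 6506, and 6088, 6349, 5558 and 6134. All 3 carry suffixes, and the gene was singled out after its values were seen.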
